A study of Mus musculus with 15 samples.

Results

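The genes described here are 37 genes of the autophagy machinery, chosen by name from the 23420 genes of the deposited table. They cover the initiation kinase complex, the class III phosphatidylinositol 3-kinase, membrane supply and lipid readers, the conjugation enzymes, the Atg4 proteases, the Atg8 proteins, the cargo receptors, and the transcription factors Tfeb and Tfe3. All 37 had a row in the table, Atg101 under its older symbol 9430023L20Rik, and all 37 were above 0 in at least 3 of the 15 libraries, the filter used for testing. Of these, 23 were above 0 in every library, and Atg4c and Gabarapl1 had a mean level under 1 in each group.

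RNA was measured in mouse B cells transferred to C57BL6 hosts, in which NP-CGG emulsified in CFA served as the antigen, and sorted from lymph nodes on day 12, with 100 cells per library and 3 libraries per group. The donor cells of every group carried the B1-8hi (KI/+) antigen receptor allele, whose product can bind the hapten NP, so that all groups describe B cells of 1 receptor knock-in. GC-PB were germinal centre derived plasmablasts, sorted as CD45.1+ CD138hi CD44hi tdTomato+ cells from S1pr2-ERT2cre Tg ROSA-Ai14 (KI/+) donors, with tamoxifen given on days 6, 7 and 8. S1pr2 is a receptor gene of germinal centre cells, and the tdTomato label therefore marks cells that had active Cre at the time of tamoxifen, and their progeny. The other 4 groups came from Bcl6-YFP (KI/+) donors without that Cre and were sorted as B220+ CD45.1+ CD38lo GL7hi germinal centre B cells. Among light zone cells (CXCR4lo CD86hi), Fraction 1 was CD69hi Bcl6lo, Fraction 2 CD69hi Bcl6hi and Fraction 3 CD69lo Bcl6hi, while DZ denotes dark zone cells (CXCR4hi CD86lo). The series title names plasma cell-prone germinal centre B cells as its subject, and the comparisons below follow neighbouring groups, GC-PB against Fraction 1, Fraction 1 against Fraction 2, Fraction 2 against Fraction 3 and Fraction 3 against DZ.

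Autophagy encloses cytoplasm, aggregates or organelles in a double membrane that fuses with the lysosome. A kinase complex around Ulk1, Atg13 and Rb1cc1 starts the process, a lipid kinase complex around Becn1 and Pik3c3 marks the growing membrane, and conjugation enzymes attach Atg8 proteins such as Map1lc3b and Gabarap to its lipids, where receptors such as Sqstm1 and Nbr1 dock their cargo. Tfeb and Tfe3 are transcription factors that activate genes of lysosomes and autophagy when the nutrient-sensing kinase mTORC1 is inactive. In mice, loss of Atg5 in B cells is known to impair the maintenance of long-lived plasma cells, which carry a large secretory apparatus.

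Levels below are the deposited signal rescaled to 100000 per library after Rn45s, a ribosomal RNA precursor, was left out of the total. Each deposited value is taken as a number of molecules times a constant particular to its library, a reading from the values that the labels do not state. On that reading, a library held 184103 to 376992 molecules, and 1 molecule corresponded to a level of 0.278 to 0.603. Levels of a few units thus rest on a handful of molecules and are imprecise. Changes are log2 fold changes ± SE of level + 1, which understates the change of low genes, and adjusted p-values are from limma over all 11190 genes tested, with genes called at an adjusted p under 0.05.

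The libraries differed in ways that touch the comparisons. The 6 GC-PB and Fraction 1 libraries had a larger constant (0.305 to 0.362) than the 9 others (0.105 to 0.139), and they carried Xist at 23.2 to 37.4, against 0 in the 9 others, whereas the Y-linked Ddx3y was at most 0.105 in the 6 and 10.1 to 16.1 in the 9. Fraction 1 against Fraction 2 crosses this divide with all of its libraries, so that divide and cell fraction cannot be told apart there, while the other 3 comparisons stay on 1 side of it. Mean constants were 0.358 in GC-PB, 0.318 in Fraction 1 and 0.115 in Fraction 2, and mean molecules per library 201517, 348639 and 350126. On the deposited scale the median gene moved by -0.42 in GC-PB against Fraction 1 and by 0.64 in Fraction 1 against Fraction 2. At equal totals these medians were -0.13 and -0.06. GC-PB also differed from Fraction 1 in donor genotype, in tamoxifen and in the surface markers of the sort, which cannot be told apart from the cell state.

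The labels of plasmablasts and germinal centre B cells were checked against marker genes. The summed level of 8 plasma cell markers was 7441 to 10741 in GC-PB, 74.7 to 102 in Fraction 1, 113 to 125 in Fraction 2, 131 to 157 in Fraction 3 and 189 to 197 in DZ. The sum of 8 germinal centre B cell markers was 69.4 to 113, 175 to 226, 415 to 455, 575 to 589 and 527 to 562 in the same groups, with Bcl6 at 0 in every GC-PB library. The plasma cell markers did not move together between Fraction 1 and Fraction 2, where 2 were called higher and 2 lower. Mean Irf4 was 14.1 in Fraction 1 and 4.14 in Fraction 2, and mean Slpi 19.1 and 4.51. Mean Igj was 15.6 and 52.6 in these 2 groups, and mean Mzb1 26.5 and 41.7. Of the genes behind the zone sort, added after the first results were seen, Cd86 was at 17.4 to 20.1 in Fraction 1, 9.67 to 15.8 in Fraction 2, 12.4 to 14.1 in Fraction 3 and 1.87 to 7.15 in DZ. Cxcr4 was at 3.51 to 5.29, 8.07 to 13.1, 14.1 to 19.1 and 27.8 to 35.2 in these groups, so that both genes separated DZ from the light zone in the direction of the labels. Cd69 was at 4.27 to 8.35 in Fraction 1, 5.93 to 10.2 in Fraction 2, 4.12 to 6.39 in Fraction 3 and 2.49 to 6.79 in DZ, where groups overlapped and transcript levels did not separate the CD69hi and CD69lo sorts. Of the other cell types looked for, 9 macrophage and monocyte markers summed to at most 2.55 and 6 neutrophil and NK cell markers to at most 0.319 in any library, and 7 dendritic cell markers summed to 6.98 to 8.78 in GC-PB, 6.16 to 13.8 in Fraction 1 and 5.63 to 11.9 over the remaining groups. The 8 T cell markers summed to 23.0 to 29.1 in GC-PB and at most 1.37 elsewhere. Cd28 alone averaged 25.7 in GC-PB, while Cd3e and Cd4 were at 0 in all libraries. The part of these markers in the results below was not tested.

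Together, the 37 autophagy genes took the largest part of the library in GC-PB and the smallest in Fraction 1. Their summed level was 232, 191 and 223 in GC-PB, 127, 123 and 127 in Fraction 1, 155, 146 and 148 in Fraction 2, 155, 175 and 167 in Fraction 3, and 170, 174 and 175 in DZ. The GC-PB libraries lay above all others and the Fraction 1 libraries below all others, while Fraction 3 and DZ overlapped. These are shares of RNA, and fewer cells with a transcript and less transcript per cell cannot be told apart in such bulk libraries. Abundant genes weigh most in the sum. Map1lc3b averaged 40.2 in GC-PB and 12.2 in Fraction 1, and Gabarap 37.9 and 16.8. The set did not rise as a whole, since the median change in GC-PB over Fraction 1 was 0.02, with 20 genes above 0 and 17 below.

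In GC-PB against Fraction 1, 12 of the 37 genes were called higher and 3 lower. Over all genes tested, 37.0% were called in this comparison (14.0% higher and 23.1% lower). The 40.5% of autophagy genes called was thus close to the background, and their calls were mostly upward while those of all genes were mostly downward. The median change of the 37 genes was 0.02 and that of all genes -0.13. The split depended on the scale. By median ratios 14 autophagy genes were called higher and 2 lower, beside 18.2% and 17.9% of all genes, and on the deposited scale 9 were higher and 10 lower, beside 11.2% and 45.8%. The 12 higher genes at equal totals were Atg13, Rb1cc1, Atg9a, Wipi1, Atg5, Atg4a, Map1lc3a, Map1lc3b, Gabarap, Sqstm1, Nbr1 and Tax1bp1, and the 3 lower genes were Becn1, Tfeb and Tfe3. By median ratios Ulk1 and Gabarapl2 were also called higher. On the deposited scale Ulk2, Pik3r4, Uvrag, Atg3, Atg7, Atg12 and Optn were also called lower. Calls below are at equal totals unless another scale is named.

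**Figure D1:**
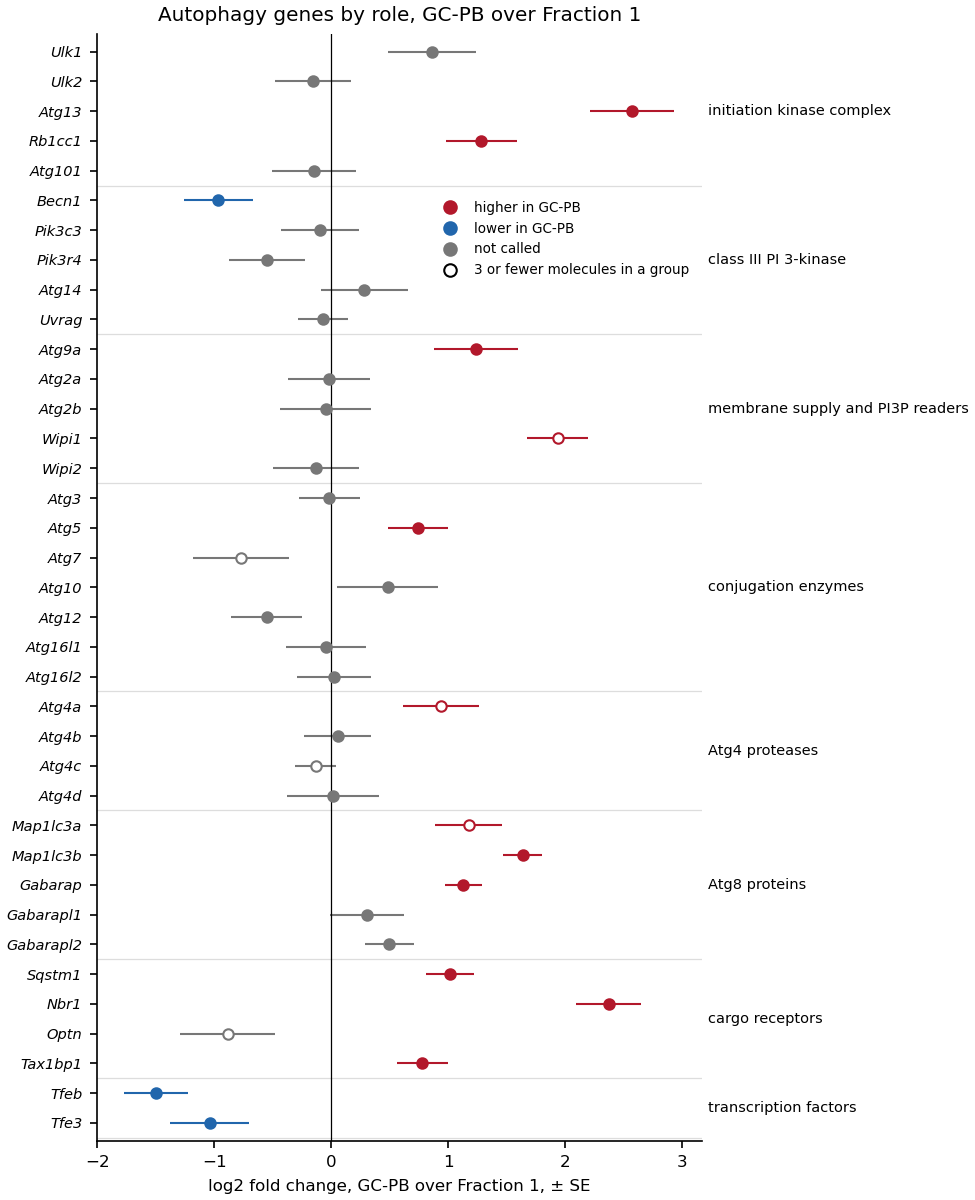
Log2 fold change ± SE of each autophagy gene in GC-PB over Fraction 1 at equal totals, ordered by role, with 3 libraries per group. Red points mark genes called higher, blue points genes called lower and grey points genes not called, and open points mark genes with 3 or fewer molecules in a group, whose plotted value depends on the pseudocount. Atg13 (2.57) and Nbr1 (2.37) lie farthest to the right and Tfeb (-1.50) farthest to the left.

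The initiation complex contained 2 genes that were higher in GC-PB. Atg13 (chr2:91674618-91710576, mm10), the adaptor that links Ulk1 to the rest of the complex, was at 7.84, 5.62 and 9.63 in GC-PB, 0.61, 0.836 and 0 in Fraction 1, 0.936, 0.896 and 0.851 in Fraction 2, 1.5, 3.63 and 0.912 in Fraction 3, and 1.25, 0.715 and 1.87 in DZ. The GC-PB libraries lay above all 12 others, and Atg13 was higher than in Fraction 1 by 2.57 ± 0.36 (adjusted p = 5.73e-06). Rb1cc1 (chr1:6206197-6276648), the large scaffold of the complex, was at 13.3, 5.62 and 4.28 in GC-PB against 1.83, 2.79 and 2.23 in Fraction 1, a change of 1.28 ± 0.31 (adjusted p = 0.00194). Its GC-PB libraries did not overlap Fraction 1 but overlapped the other groups, since Rb1cc1 averaged 4.38 ± 0.564 in Fraction 2, 5.17 ± 0.928 in Fraction 3 and 7.28 ± 1.81 in DZ (SD, n = 3 each). The call for Rb1cc1 was lost when only the libraries of GC-PB and Fraction 1 entered the fit (change 1.28).

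The kinases themselves were not called at equal totals. Ulk1, the kinase that phosphorylates the complex and its targets, was at 2.41, 0.51 and 2.68 in GC-PB and 0.61, 0 and 0.957 in Fraction 1 (0.86 ± 0.38, adjusted p = 0.0788). Those libraries overlapped. The mean level of its homologue Ulk2 was 1.44, 1.71, 1.79, 1.26 and 2.02 in GC-PB, Fraction 1, Fraction 2, Fraction 3 and DZ, and that of Atg101, which stabilizes Atg13, was 1.91, 1.97, 3.07, 5.24 and 3.24 in the same groups.

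Among the genes of the lipid kinase, Becn1 (chr11:101285952-101302286), its regulatory subunit, was lower in GC-PB. It was at 3.62, 3.57 and 5.89 in GC-PB, 13.1, 5.01 and 11.8 in Fraction 1, 12.5, 8.66 and 9.64 in Fraction 2, 8.62, 11.8 and 8.67 in Fraction 3, and 6.64, 13.9 and 10.5 in DZ. The highest GC-PB library overlapped the lowest Fraction 1 library, and the change was -0.97 ± 0.30 (adjusted p = 0.0129). The call was lost by median ratios (-0.73), with only these 2 groups in the fit (-0.97), without Fraction 1 replicate 1 (-0.74) and without Fraction 1 replicate 3 (-0.81). The catalytic subunit Pik3c3 averaged 2.15, 2.34, 2.28, 3.75 and 2.4 in GC-PB, Fraction 1, Fraction 2, Fraction 3 and DZ, and its scaffold Pik3r4 averaged 1.24, 2.26, 3.26, 2.97 and 2.14. Atg14, which directs the complex to forming autophagosomes, stayed at a mean of 0.303 to 1.29 in all groups. At equal totals neither it nor the catalytic subunit or the scaffold was called in any comparison. On the deposited scale Pik3r4 was called lower in GC-PB than in Fraction 1 (-0.89).

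Membrane supply and lipid reading contained 2 higher genes. Atg9a (chr1:75180860-75192196), the lipid scramblase of the vesicles that seed the membrane, was at 3.62, 2.04 and 3.75 in GC-PB and 0.305, 1.39 and 0.638 in Fraction 1 (1.24 ± 0.36, adjusted p = 0.00957). These libraries did not overlap, but the call was lost without Fraction 1 replicate 1 (1.03). Mean levels of Atg9a in Fraction 2, Fraction 3 and DZ were 0.98, 0.526 and 0.896.

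Wipi1 (chr11:109573331-109611967), a reader of the lipid made by the class III kinase, was at 6.03, 1.53 and 2.14 in GC-PB, against 0 in each of the 12 remaining libraries. It stood for 17 molecules over the GC-PB libraries and passed the filter through that group alone, so that a difference was bound to appear (adjusted p = 3.02e-06 against Fraction 1). Its paralogue Wipi2 averaged 2.51, 2.52, 2.69, 4.13 and 4.76 in GC-PB, Fraction 1, Fraction 2, Fraction 3 and DZ. The lipid transfer genes Atg2a (means 1.39 to 1.93) and Atg2b (2.32 to 3.22) were not called.

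Of the 7 conjugation enzyme genes, Atg5 alone was called at equal totals. Atg5 (chr10:44268358-44364291), which is joined to Atg12 and acts with Atg16l1 to attach Atg8 proteins to lipid, was at 9.05, 8.17 and 11.8 in GC-PB, 5.18, 6.41 and 4.47 in Fraction 1, 4.05, 3.29 and 5.1 in Fraction 2, with means of 5.89 ± 1.57 in Fraction 3 and 4.51 ± 1.42 in DZ (SD, n = 3 each). Its GC-PB libraries lay above those of Fraction 1, with a change of 0.74 ± 0.26 (adjusted p = 0.027). The call was lost on the deposited scale (0.13) and without Fraction 1 replicate 1 (0.73), Fraction 1 replicate 3 (0.64) or GC-PB replicate 3 (0.61).

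Its partner Atg12 had lower values in GC-PB, with means of 2.55, 4.25, 4.68, 5.59 and 4.61 in GC-PB, Fraction 1, Fraction 2, Fraction 3 and DZ. The GC-PB and Fraction 1 libraries of Atg12 did not overlap, but the change of -0.55 ± 0.30 was not called (adjusted p = 0.167). The E1-like enzyme Atg7 averaged 0.519 in GC-PB and 1.52 in Fraction 1, not called either (adjusted p = 0.154). On the deposited scale Atg12 (-1.03), Atg7 (-0.96) and Atg3 (-0.61) were called lower in GC-PB. The E2-like enzyme Atg3 averaged 7.68, 7.37, 7.7, 8.46 and 6.88 over the 5 groups in the same order. Atg10 (0.303 to 1.32), Atg16l1 (1.74 to 2.48) and Atg16l2 (1.72 to 3.7) (ranges of group means) were not called at equal totals.

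The Atg4 proteases trim Atg8 proteins before conjugation and release them from membranes afterwards. Atg4a (chrX:140956907-141164270) was at 1.21, 1.02 and 1.07 in GC-PB against 0, 0 and 0.319 in Fraction 1 (adjusted p = 0.028). No library overlapped, but these values stand for 6 molecules in GC-PB and 1 in Fraction 1, too few for a fold. The call ended when Fraction 1 replicate 1, Fraction 1 replicate 2, GC-PB replicate 1 or GC-PB replicate 3 was left out, where the fitted change was 0.87, 0.87, 0.90 and 0.95. Atg4b averaged 2.37 in GC-PB and 2.28 in Fraction 1, Atg4d 2.16 and 2.09, and Atg4c was above 0 in 3 libraries only.

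The Atg8 family had a higher summed level in GC-PB than in every other group, most of it from Map1lc3b and Gabarap. Other roles were not summed. The 5 genes together were at 85.1, 82.7 and 101 in GC-PB, 33.1, 39.8 and 34.5 in Fraction 1, 39.0, 36.2 and 38.1 in Fraction 2, 42.0, 52.0 and 44.7 in Fraction 3, and 46.1, 50.2 and 48.7 in DZ. Every GC-PB library was above all 12 others. Map1lc3b (chr8:121590361-121598760), which encodes the LC3B protein used as a marker of autophagosomes, was at 36.8, 36.8 and 47.1 in GC-PB, 11.3, 12.2 and 13.1 in Fraction 1, 9.67, 10.5 and 8.51 in Fraction 2, 10.1, 11.3 and 11.9 in Fraction 3, and 13.3, 16.8 and 17.6 in DZ. It was higher in GC-PB than in Fraction 1 by 1.63 ± 0.16 (adjusted p = 5.25e-08) and stood for 221 and 122 molecules in these groups, so that it was among the better measured of the 37 genes.

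Gabarap (chr11:69991143-69994951), a family member that acts later in autophagosome maturation, was at 35.6, 35.7 and 42.3 in GC-PB, 14.6, 18.9 and 16.9 in Fraction 1, 21.5, 17.3 and 21.8 in Fraction 2, 22.5, 29.96 and 22.8 in Fraction 3, and 24.1, 26.8 and 20.6 in DZ. It was higher in GC-PB than in Fraction 1 by 1.13 ± 0.16 (adjusted p = 5.85e-06). Again no other library reached a GC-PB library. Map1lc3a (chr2:155276297-155278073), a paralogue of Map1lc3b, was at 2.41, 1.53 and 1.07 in GC-PB against 0, 0.557 and 0 in Fraction 1 (adjusted p = 0.00258), which stands for 9 and 2 molecules. Gabarapl2 was at 10.3, 8.17 and 8.56 in GC-PB against 6.55, 7.52 and 4.47 in Fraction 1, with no overlap. It was not called at equal totals (0.50 ± 0.21, adjusted p = 0.0696) but was called higher by median ratios (0.76, adjusted p = 0.00648). Gabarapl1 was above 0 in 7 of the 15 libraries.

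**Figure D2:**
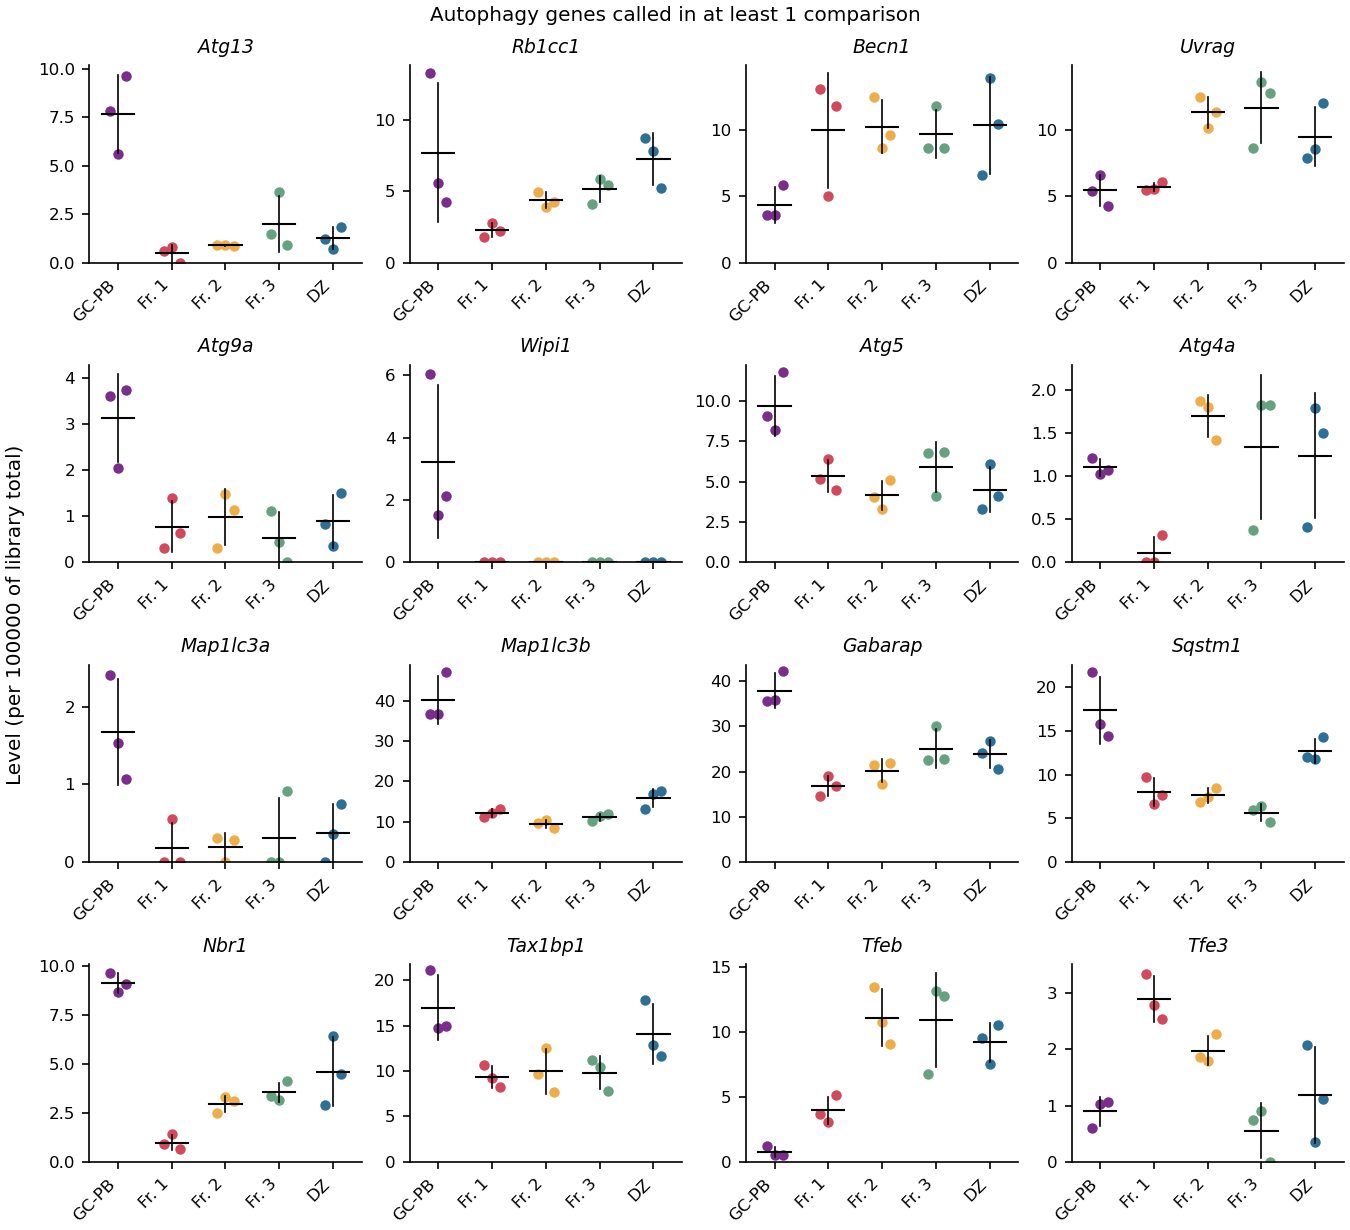
Level per 100000 of the library total, on a linear axis from 0, of the 16 autophagy genes called in at least 1 comparison. Points are libraries, horizontal bars means and vertical bars SD, cut at 0 where they reach below it (3 libraries per group, Fr. for Fraction). In Atg13, Atg9a, Atg5, Map1lc3a, Map1lc3b, Gabarap, Sqstm1 and Nbr1 every GC-PB library lies above all others, by a narrow margin in Sqstm1. The share of all genes that do so is not given here. Wipi1 passed the filter through GC-PB alone, so that its separation was bound to appear. Tfeb is low in GC-PB, intermediate in Fraction 1 and high elsewhere.

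Of the cargo receptors, 3 of 4 were called higher in GC-PB at equal totals, beside 14.0% of all genes. On the deposited scale 1 was called higher and 1 lower. Nbr1 (chr11:101552149-101581951), a receptor for ubiquitinated cargo, was at 9.65, 8.68 and 9.1 in GC-PB, 0.915, 1.39 and 0.638 in Fraction 1, 2.5, 3.29 and 3.12 in Fraction 2, 3.37, 3.18 and 4.11 in Fraction 3, and 2.9, 6.44 and 4.5 in DZ. The GC-PB libraries lay above all others and those of Fraction 1 below all others. It was higher in GC-PB than in Fraction 1 by 2.37 ± 0.28 (adjusted p = 4.5e-07).

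Sqstm1 (chr11:50199366-50210827), which encodes the p62 receptor, was at 21.7, 15.8 and 14.4 in GC-PB, 9.76, 6.68 and 7.66 in Fraction 1, 6.86, 7.47 and 8.51 in Fraction 2, 6.0, 6.36 and 4.56 in Fraction 3, and 12.0, 11.8 and 14.2 in DZ. It was higher in GC-PB than in Fraction 1 by 1.02 ± 0.20 (adjusted p = 0.000366), a call lost on the deposited scale (0.37). Tax1bp1 (chr6:52713729-52766780), another ubiquitin-binding receptor, was at 21.1, 14.8 and 14.98 in GC-PB and 10.7, 9.19 and 8.29 in Fraction 1, without overlap (0.78 ± 0.21, adjusted p = 0.00628, not called on the deposited scale with 0.13). Optn, a receptor best known from mitochondria, had the opposite order. It was at 0.603, 0 and 0 in GC-PB and 1.83, 0.836 and 0.957 in Fraction 1 and was not called (adjusted p = 0.0923). On the deposited scale it was called lower in GC-PB (-1.01).

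Both transcription factors of the group were called lower in GC-PB, as were 23.1% of all genes. Tfeb (chr17:47737030-47792419) was at 1.21, 0.51 and 0.535 in GC-PB, 3.66, 3.06 and 5.1 in Fraction 1, 13.4, 10.8 and 9.07 in Fraction 2, 6.75, 13.2 and 12.8 in Fraction 3, and 9.54, 7.51 and 10.5 in DZ. GC-PB lay below Fraction 1, and Fraction 1 below the other 3 groups, with no overlap at either step. The change in GC-PB over Fraction 1 was -1.50 ± 0.27 (adjusted p = 0.000129), with 4 and 39 molecules behind the groups. Tfe3 (chrX:7762560-7775202), its close relative, was at 0.603, 1.02 and 1.07 in GC-PB, 3.35, 2.79 and 2.55 in Fraction 1, 1.87, 1.79 and 2.27 in Fraction 2, 0.75, 0.908 and 0 in Fraction 3, and 2.08, 0.358 and 1.12 in DZ. It was thus highest in Fraction 1, and lower in GC-PB than there, with a change of -1.04 ± 0.34 (adjusted p = 0.0184). This call was lost with a pseudocount of 0.3 (-1.43), without Fraction 1 replicate 1 (-0.96) and without GC-PB replicate 1 (-0.92). In Fraction 1 over Fraction 2, which crosses the divide between the libraries, Tfe3 was not called (0.39 ± 0.34, adjusted p = 0.60). Tfe3 lies on the X chromosome, for which the 2 sides of the divide differ in Xist.

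Since Tfeb and Tfe3 bind E-boxes of the sequence CACGTG, preferably within the longer CLEAR palindrome, the promoters of the genes were searched for these letters. The promoter table of RefSeq (GRCm38.p6, from 250 bases before to 50 after each start) covered 31 of the 37 genes. Both motifs read the same on either strand, and the shorter lies within the longer. CACGTG was present in the promoter of 4 of these 31 genes (12.9%), Atg3, Atg5, Atg7 and Atg14, beside 8.09% of all 27025 genes in that table, and the CLEAR palindrome in 0 of 31 beside 0.370%. Of the 12 genes higher in GC-PB, 10 had a promoter in the table, and 1 of these, Atg5, held CACGTG. By comparison 14 of 31 lysosomal genes of the list below (45.2%), 7 of 32 further autophagy genes (21.9%) and 7 of 35 genes of nutrient control (20.0%) held it. Among lysosomal genes, it was present in 4 of 13 called higher in GC-PB and in 10 of 17 tested and not called higher. The stretches around the motif are shown for the 3 autophagy genes in which it lies wholly before the start, and for Sec62, the further autophagy gene with the smallest p in GC-PB against Fraction 1, with CACGTG in capitals. They are from the plus strand of GRCm38.p6, at chr10:44268301-44268338 for Atg5, chr6:114670940-114670993 for Atg7, chr16:45158711-45158787 for Atg3 and chr3:30792820-30792873 for Sec62.
Atg5: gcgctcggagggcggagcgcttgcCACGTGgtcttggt
Atg7: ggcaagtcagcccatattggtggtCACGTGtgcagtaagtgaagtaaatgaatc
Atg3: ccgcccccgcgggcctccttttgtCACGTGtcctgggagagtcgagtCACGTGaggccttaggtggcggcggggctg
Sec62: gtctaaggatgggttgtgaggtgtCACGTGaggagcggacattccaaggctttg
The motif begins 14 bases before the RefSeq start in Atg5, 132 in Atg7, 94 and 71 in Atg3, where it is present at 2 places, and 32 in Sec62. The RefSeq start of Atg7 is an internal one, since GENCODE begins this gene upstream, at chr6:114643097. Atg5 and Sec62 were called higher in GC-PB and Atg3 and Atg7 were not called. Whether the motif, the level of Tfeb and the calls of any of these genes are linked was not tested. A match is a string of letters and not a measured binding site.

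In Fraction 1 against Fraction 2, 4 of the 37 genes were called lower, Tfeb, Uvrag, Nbr1 and Atg4a, and 0 higher. Over all genes, 7.85% were called (2.89% higher and 4.96% lower), and the median change was -0.07 for the autophagy genes and -0.06 for all genes. At an unadjusted p under 0.05, Rb1cc1 was the other gene to differ (-0.72 ± 0.31, adjusted p = 0.174). On the deposited scale 19 autophagy genes were called higher and 1 lower, beside 54.7% and 0.563% of all genes, whereas median ratios gave 0 higher and 4 lower, beside 3.94% and 3.47%. Direction in this comparison therefore depends on the scale, and each value below is at equal totals.

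Tfeb, with the levels given above, was lower in Fraction 1 than in Fraction 2, with a change of -1.29 ± 0.27 (adjusted p = 0.00418), with no overlap of libraries. On the deposited scale its change was -0.04 and was not called. Uvrag (chr7:98885021-99141141), a partner of Becn1 in the form of the lipid kinase that acts on endosomes and late autophagosomes, was at 5.43, 6.64 and 4.28 in GC-PB, 5.49, 5.57 and 6.06 in Fraction 1, 12.5, 10.2 and 11.3 in Fraction 2, 8.62, 13.6 and 12.8 in Fraction 3, and 7.88, 8.58 and 12.0 in DZ. GC-PB and Fraction 1 overlapped and lay below all libraries of the other 3 groups. This split coincides with the divide between the libraries, so that divide and cell group cannot be told apart. The change in Fraction 1 over Fraction 2 was -0.87 ± 0.22 (adjusted p = 0.0149) and turned to 0.39, not called, on the deposited scale. Leaving out Fraction 1 replicate 1 (-0.85), Fraction 2 replicate 1 (-0.81) or Fraction 2 replicate 3 (-0.87) ended the call.

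Nbr1 was lower in Fraction 1 than in Fraction 2, with a change of -1.01 ± 0.28 (adjusted p = 0.0261), with 10 molecules in Fraction 1. This call was lost on the deposited scale (-0.08), with a pseudocount of 3 (-0.59), and when Fraction 1 replicate 1 (-0.997), Fraction 1 replicate 3 (-0.88), Fraction 2 replicate 2 (-0.95) or Fraction 2 replicate 3 (-0.98) was left out. Atg4a was at 0, 0 and 0.319 in Fraction 1 and 1.87, 1.79 and 1.42 in Fraction 2 (adjusted p = 0.0165), which stands for 1 and 17 molecules. Leaving out Fraction 1 replicate 1 (-1.23), Fraction 1 replicate 2 (-1.23), Fraction 2 replicate 1 (-1.24) or Fraction 2 replicate 2 (-1.26) ended its call. Atg4a lies on the X chromosome, for which the libraries on either side of the divide differ in Xist.

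In Fraction 2 against Fraction 3, 0 of the 37 genes were called by limma, beside 0.420% of all genes, and 1 had an unadjusted p under 0.05. That gene was Tfe3, at 1.87, 1.79 and 2.27 in Fraction 2 and 0.75, 0.908 and 0 in Fraction 3. These libraries did not overlap, but the change of 0.99 ± 0.34 had an adjusted p of 0.25. The median change was -0.06 for the autophagy genes and 0.00 for all genes.

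In Fraction 3 against DZ, Sqstm1 was the 1 autophagy gene called, and it was lower, beside 0.760% of all genes called and 0.331% called lower. Its levels of 6.0, 6.36 and 4.56 in Fraction 3 were all under the 12.0, 11.8 and 14.2 in DZ, a change of -1.05 ± 0.20 (adjusted p = 0.0118, -0.89 on the deposited scale). The call was lost with only these 2 groups in the fit (-1.05) and without Fraction 3 replicate 3 (-0.93), DZ replicate 1 (-1.08) or DZ replicate 3 (-0.97). Map1lc3b was at 10.1, 11.3 and 11.9 in Fraction 3 against 13.3, 16.8 and 17.6 in DZ (-0.47 ± 0.16, adjusted p = 0.281), and Tax1bp1 at 11.2, 10.4 and 7.76 against 17.8, 12.9 and 11.6 (-0.48 ± 0.21, adjusted p = 0.476). Neither pair of groups overlapped, and neither gene was called. The median change was 0 both for the autophagy genes and for all genes.

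The wider pathway was described with 3 further lists. Of 38 tested further autophagy genes, 9 were higher and 4 lower in GC-PB against Fraction 1 (median 0.29, beside -0.13 for all genes). The 34.2% called was near the 37.0% of all genes, and on the deposited scale 7 were higher and 11 lower (median -0.17). Sec62, an ER translocon component that also acts as a receptor for ER autophagy, was at 46.5, 40.8 and 44.4 in GC-PB against 9.15, 12.0 and 11.5 in Fraction 1 (1.93 ± 0.17, adjusted p = 5.25e-09). Ccpg1, another ER autophagy receptor, was at 26.5, 10.2 and 16.6 against 0.305, 0.557 and 0 in the same groups (adjusted p = 1.54e-08), and Pink1, a kinase that marks damaged mitochondria, was at 4.83, 6.64 and 3.75 against 0.305, 0 and 0 (adjusted p = 3.84e-05). The Fraction 1 values of Ccpg1 and Pink1 stand for 3 and 1 molecules. The 4 lower genes, named after their values were seen, were Rubcn (mean 2.28 in GC-PB and 9.07 in Fraction 1), Fam134b (4.32 and 8.78), Nrbf2 (4.15 and 7.37) and Ambra1 (0.201 and 0.902). Rubcn encodes an inhibitor of the lipid kinase complex, and Nrbf2 and Ambra1 encode partners of that complex. Fam134b encodes a receptor for ER autophagy, as Sec62 and Ccpg1 do, so that genes of such receptors went in both directions.

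Of 34 tested genes of mTORC1, AMPK and nutrient control, 3 were higher and 4 lower in GC-PB (median -0.11), a share of 20.6% beside 37.0% of all genes. On the deposited scale 3 were higher and 17 lower (58.8%, beside 57.0% of all genes, median -0.55). Slc38a9, a lysosomal arginine sensor, was at 3.02, 2.04 and 2.68 in GC-PB and 0, 0.836 and 0.319 in Fraction 1 (1.40 ± 0.36, adjusted p = 0.00329). Flcn, a regulator of the Rag GTPases, was at 0.603, 0 and 1.07 in GC-PB and 3.66, 3.06 and 3.19 in Fraction 1 (adjusted p = 0.00147), with 3 molecules in GC-PB. Deptor, an inhibitor of mTOR, was at 0.603, 0.51 and 0.535 in GC-PB, which is 1 molecule per library, against 0 in all 12 other libraries. It passed the filter through GC-PB alone, as Wipi1 did, so that a difference was bound to appear. Lamtor2 was higher (mean 4.79 in GC-PB and 1.99 in Fraction 1) and Lamtor1, another subunit of the Ragulator complex, lower (4.20 and 8.22), a pair named after their values were seen. The AMPK subunit genes Prkab1 and Prkab2 were the other lower genes.

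Of 41 tested lysosomal genes, 18 were higher and 2 lower in GC-PB (48.8% called, median 0.62), beside 14.0% higher and 23.1% lower over all genes. On the deposited scale 14 were higher and 11 lower (median 0.21), beside 11.2% and 45.8%. Ctsb, which encodes the protease cathepsin B, was at 62.1, 48.5 and 34.8 in GC-PB against 4.27, 3.90 and 3.19 in Fraction 1 (3.34 ± 0.23, adjusted p = 1.92e-10). Npc2, a carrier of cholesterol out of the lysosome, was at 38.6, 35.2 and 32.1 against 5.18, 3.06 and 2.87 (2.98 ± 0.28, adjusted p = 1.54e-08). Atp6v0c, a proton pump subunit, was at 18.4, 17.6 and 15.5 against 5.33, 5.15 and 3.51 (1.70 ± 0.22, adjusted p = 1.53e-06). In each of these 3 genes the groups were far apart. Among the lower genes was Lamp1, a main membrane protein of the lysosome, named after its values were seen (mean 5.33 in GC-PB and 13.6 in Fraction 1).

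Fewer genes of the lists were called among the germinal centre fractions, as for all genes, of which 7.85%, 0.420% and 0.760% were called in the 3 comparisons. In Fraction 1 against Fraction 2, 1 further autophagy gene and 1 lysosomal gene were called, both lower, and 0 of 34 genes of nutrient control, of which 5 had an unadjusted p under 0.05. On the deposited scale 19 further autophagy genes, 21 genes of nutrient control and 32 lysosomal genes were called higher there and 0 lower, beside 54.7% of all genes higher. Plekhm1, an adaptor for fusion with the lysosome, was at 2.13, 2.51 and 0.319 in Fraction 1 against 4.68, 4.18 and 5.95 in Fraction 2 (-1.27 ± 0.36, adjusted p = 0.0302). This call was lost on the deposited scale (-0.20), with only these 2 groups in the fit (-1.27), and when Fraction 1 replicate 3 (-0.83), Fraction 2 replicate 1 (-1.30), Fraction 2 replicate 2 (-1.37) or Fraction 2 replicate 3 (-1.15) was left out. By limma, 0 genes of the 3 lists were called in Fraction 2 against Fraction 3 and in Fraction 3 against DZ. Unadjusted p-values under 0.05 were found there for 2 and 4 further autophagy genes, 1 and 4 genes of nutrient control, and 3 and 2 lysosomal genes.

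**Figure D3:**
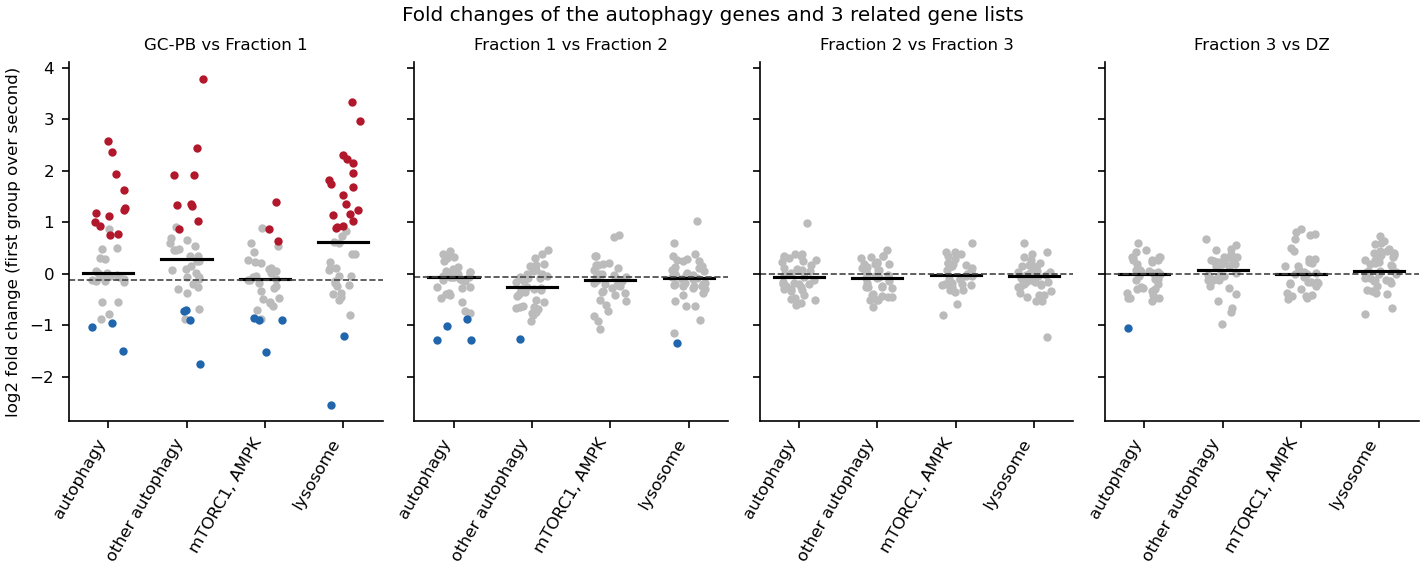
Log2 fold change of every tested gene of 4 lists at equal totals, in GC-PB over Fraction 1, Fraction 1 over Fraction 2, Fraction 2 over Fraction 3 and Fraction 3 over DZ. Each point is a gene, red where called higher, blue where called lower and grey where not called, black bars are list medians and the dashed line is the median of all 11190 genes. In the first panel the lysosomal median is 0.62 and that of the 37 autophagy genes 0.02, and in the last 2 panels 1 gene of all 4 lists is called.

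Ratios between genes of 1 library do not depend on how the library is scaled. The 3 pairs given here were chosen after their values were seen and were not tested. The ratio of Map1lc3b to Gabarap was 1.03, 1.03 and 1.11 in GC-PB, 0.771, 0.647 and 0.774 in Fraction 1, 0.449, 0.603 and 0.390 in Fraction 2, 0.450, 0.379 and 0.520 in Fraction 3, and 0.552, 0.627 and 0.855 in DZ. It was highest in GC-PB, and Fraction 1 lay above Fraction 2 and Fraction 3 while overlapping DZ. The ratio of Nbr1 to Tax1bp1 averaged 0.550 ± 0.0812 in GC-PB, 0.105 ± 0.0408 in Fraction 1, 0.309 ± 0.0851 in Fraction 2, 0.378 ± 0.131 in Fraction 3 and 0.350 ± 0.172 in DZ (SD, n = 3 each), with the Fraction 1 libraries (0.0769 to 0.152) below all others. The ratio of Tfeb to Becn1 was 0.333, 0.143 and 0.0909 in GC-PB, 0.279, 0.611 and 0.432 in Fraction 1, 1.08, 1.24 and 0.941 in Fraction 2, 0.783, 1.12 and 1.47 in Fraction 3, and 1.44, 0.539 and 1.00 in DZ. The step between Fraction 1 and Fraction 2 in this ratio was free of overlap, and Fraction 1 overlapped GC-PB and DZ. Some ratios rest on few molecules and are imprecise, with 4 of Tfeb over the GC-PB libraries and 10 of Nbr1 over those of Fraction 1.

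**Figure D4:**
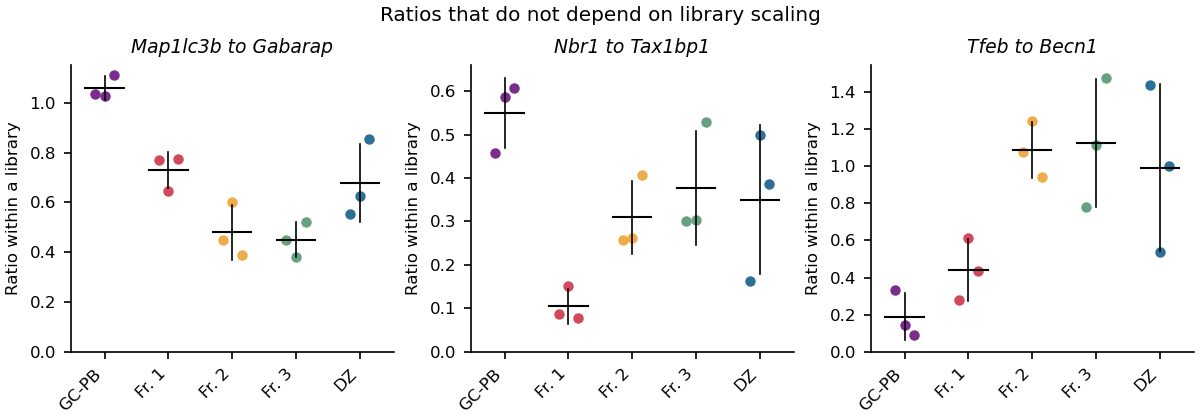
Ratio of 2 autophagy genes within each library, for Map1lc3b to Gabarap, Nbr1 to Tax1bp1 and Tfeb to Becn1, on linear axes from 0. Points are libraries, horizontal bars means and vertical bars SD (3 libraries per group, Fr. for Fraction), and mean Map1lc3b to Gabarap is 1.06 in GC-PB and 0.730 in Fraction 1. Tfeb to Becn1 in GC-PB rests on 4 molecules of Tfeb, and Nbr1 to Tax1bp1 in Fraction 1 on 10 of Nbr1.

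How far the calls depend on the scale is seen when the equal-total and deposited values are set against each other. In GC-PB over Fraction 1 the deposited changes were smaller for the genes called higher and larger in size for those called lower. Atg13 changed by 2.57 at equal totals and 2.02 as deposited, Nbr1 by 2.37 and 1.79, Map1lc3b by 1.63 and 0.96, Gabarap by 1.13 and 0.45, and Tfeb by -1.50 and -1.80. By median ratios the same genes changed by 2.83, 2.64, 1.92, 1.41 and -1.37. All 15 called genes kept their direction on these 3 scales. In Fraction 1 over Fraction 2 the changes of most of the 37 genes were near 0 at equal totals, and 32 of the 37 were above 0 as deposited, with a median of 0.59.

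**Figure D5:**
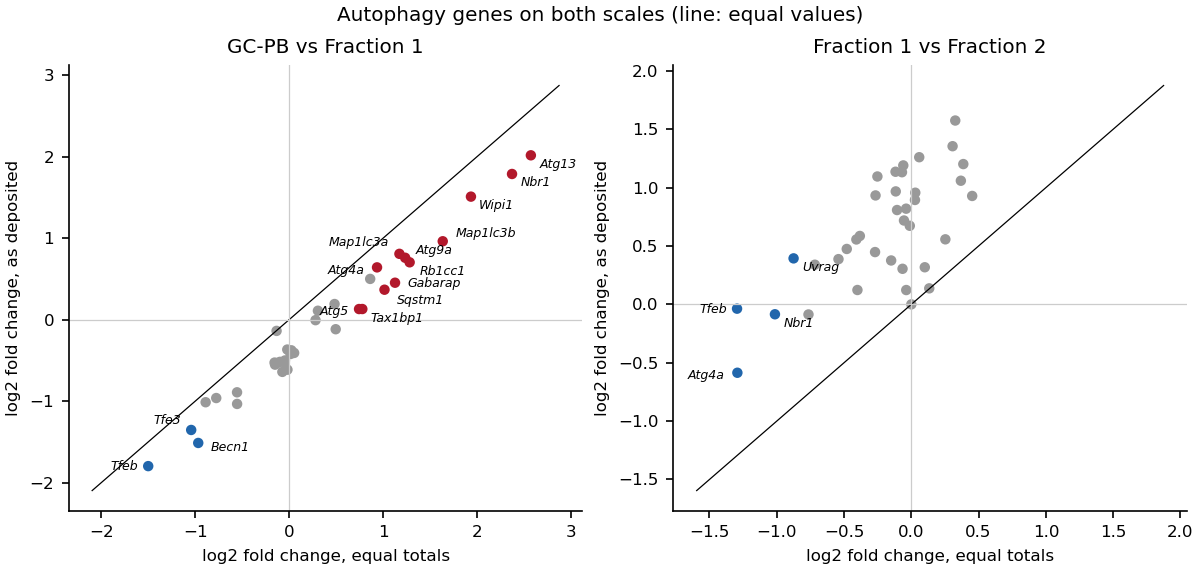
Log2 fold change of the 37 autophagy genes at equal totals (x axis) and as deposited (y axis), in GC-PB over Fraction 1 (left) and Fraction 1 over Fraction 2 (right). Red and blue points were called higher and lower at equal totals, grey points were not called, and the line marks equal values. On the left most points lie below the line, and on the right Uvrag is below 0 on the x axis (-0.87) and above 0 on the y axis (0.39).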

How the data were processed

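RNA from 15 libraries of 100 sorted cells was analysed. Per the labels, ERCC spike-in RNA was added to every tube, and cDNA was tagged with molecular barcodes and amplified. Per the submitters' processing notes, TopHat2 (version not given) aligned the reads to mm10. The authors deposited 1 table of a signal for 23420 genes, without a stated unit or scaling. The most frequent value above 0 of a library was taken as its constant, and 91.0% to 92.6% of its values were whole multiples of it within a tolerance of 0.02. Deposited totals ran from 27942 to 115088, and 9185 to 10132 genes were above 0 per library. Rn45s took 8.34% to 9.97% of the total in GC-PB and 3.31% to 8.42% elsewhere.

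Values were rescaled to 100000 per library without Rn45s, log2(value + 1) was computed, and genes above 0 in fewer than 3 libraries were removed, which left 11190. Using limma 3.58.1 (R 4.3.3) with its trend option, 1 model with a mean for each of the 5 groups was fitted, and p-values were adjusted after Benjamini-Hochberg. Alternatives were the deposited scale, median ratios, Rn45s kept, pseudocounts of 0.3 and 3, other low-value filters, only the groups compared, the replicate number as a block, and each library left out in turn. The fit was also run on simulated data in which only genes above a set mean level were changed. That run does not bear on calls of low genes. Groups came from the sample titles. Replicates are independent library preparations, and separate animals are not stated, so that p-values measure the spread between libraries, which may be technical. The genes, lists and tests were chosen with earlier results of these data known. All autophagy genes called at least once are named, with up to 3 called genes of the smallest p from each further list and comparison, and other names are marked. Some genes that met this rule are not reported here. Positions are from GENCODE vM21 and promoter sequences from RefSeq. Figures were drawn with matplotlib 3.10.9 in Python 3.11.15.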

Additional observations from a re-analysis of the deposited data

How the results depend on the processing

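At equal totals 4143, 878, 47 and 85 of the 11190 genes were called in GC-PB against Fraction 1, Fraction 1 against Fraction 2, Fraction 2 against Fraction 3 and Fraction 3 against DZ, and 15, 4, 0 and 1 of the 37 autophagy genes. As deposited, 6380, 6183, 301 and 27 genes were called in these comparisons, and 20 autophagy genes in Fraction 1 against Fraction 2, where Uvrag turned to 0.39. A pseudocount of 3 gave 77 genes, and a group mean of at least 1 gave 85 genes, in Fraction 2 against Fraction 3. With only the groups compared in the fit, 0 genes were called in Fraction 2 against Fraction 3, and 27 genes with 0 autophagy genes in Fraction 3 against DZ. Leaving out each library in turn gave 10 to 16 autophagy genes in GC-PB against Fraction 1, 462 to 573 genes with 1 to 3 autophagy genes in Fraction 1 against Fraction 2, 9 to 31 genes in Fraction 2 against Fraction 3, and 16 to 68 genes with 0 to 1 autophagy gene in Fraction 3 against DZ. Fewer libraries enter those fits. Beyond that, the cause was not tested. With the libraries of the smaller constant alone, a setting chosen after seeing the data, 64 and 98 genes were called in the last 2 comparisons, with 0 and 1 autophagy genes.

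Of the 20 calls of autophagy genes, 7 held in every alternative run, and these were Atg13, Wipi1, Map1lc3a, Map1lc3b, Gabarap, Nbr1 and Tfeb in GC-PB against Fraction 1. That of Wipi1 follows from the filter and says nothing of stability. With the replicate block, 4128, 809, 35 and 67 genes and 15, 4, 0 and 1 autophagy genes were called. Correlations of libraries with the same number ran from -0.0268 to 0.055, so that the numbers give no pairing. Depth limits the low genes, since 1 molecule is a level of 0.278 to 0.603, and a missed call in a gene of a few molecules does not show equal levels.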
